A study of Mus musculus with 10 samples.

Results

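The coagulation factor locus on mouse chromosome 8 holds F7, F10 and Proz side by side, with Mcf2l on their left and the divergent pair Pcid2 and Cul4a on their right. Chromatin loops at this locus were taken from Hi-C, a method that ligates and sequences DNA segments lying close together in the nucleus. A loop was included when 1 of its 10 kb anchor bins overlapped the 100 kb on either side of the transcription start site (TSS) of any of the 6 genes. Under this rule the locus held 139 of the 301424 listed loops, or 88 of 153264 distinct bin pairs, and 6 of 21755 protein-coding genes. The locus was selected on its loop number in these same lists, which was known to differ between untreated cells and both IL-4 groups. Loop numbers and contacts below are therefore descriptions, and no test was made of them.

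All cells were macrophages (MFs) grown from the bone marrow of wild type female C57BL/6 mice aged 2 to 3 months, using M-CSF at 20 ng/ml, and treated on day 6 of differentiation. CTR MFs (M0) received no further cytokine. IL-4 MFs (M2) received IL-4 at 20 ng/ml for 24 h, and pIL-4 MFs (M2p) were given the same IL-4, washed and rested for 24 h. IFNG MFs received IFNG at 20 ng/ml for 3 h, and pIL-4 + IFNG MFs received it after IL-4 and rest. Each of the 5 groups had 2 replicates but was represented by 1 loop list, so the spread between replicates could not be measured. The lists held 53424 to 67728 loops and 2174945 to 2787117 contacts in loops, with a median of 32 contacts per loop in each of the 5. A bin pair absent from a list has no value there, which is different from a count of 0. These are bulk maps, in which more cells holding a contact and a more frequent contact per cell cannot be told apart. Loop lists carry no expression values, so the MF label could not be checked against marker genes.

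Blood clotting proceeds through a cascade of serine proteases made mainly by the liver, several of which need vitamin K-dependent modification to bind membranes. Coagulation factor VII, encoded by F7, starts the extrinsic pathway together with tissue factor, and factor X, encoded by F10, is the protease that converts prothrombin to thrombin. Protein Z, encoded by Proz, is a cofactor of the inhibitor that shuts off activated factor X. MFs also express clotting factors, and F7 and F10 are regarded as markers of alternative polarization by IL-4. Among the neighbours, Mcf2l encodes a guanine nucleotide exchange factor, Pcid2 takes part in mRNA export and Cul4a encodes the scaffold of a ubiquitin ligase.

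In GRCm38, F7 lies at chr8:13026034-13035809, F10 at chr8:13037308-13056676 and Proz at chr8:13060914-13076026, all on the plus strand. The F7 TSS lies 11.3 kb to the left and the Proz TSS 23.6 kb to the right of the F10 TSS, so their windows share most loops and the 6 genes do not give 6 independent values. Mcf2l, on the plus strand at chr8:12873806-13020905, starts 163.5 kb to the left of the F10 TSS. Pcid2, on the minus strand at chr8:13077189-13105459, and Cul4a, on the plus strand at chr8:13105621-13147940, start 68.2 kb and 68.3 kb to its right and share 1 promoter bin. The promoters of the 3 factors are shown because each bin that holds them was a loop anchor in 1 list only, as described below. These are the 250 bases before the RefSeq start site in GRCm38, all on the plus strand:
F7, chr8:13025784-13026033: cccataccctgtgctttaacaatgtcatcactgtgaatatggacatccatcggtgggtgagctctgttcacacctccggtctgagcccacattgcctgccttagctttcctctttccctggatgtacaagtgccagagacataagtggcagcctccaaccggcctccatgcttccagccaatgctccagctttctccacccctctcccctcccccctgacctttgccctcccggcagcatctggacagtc
F10, chr8:13037058-13037307: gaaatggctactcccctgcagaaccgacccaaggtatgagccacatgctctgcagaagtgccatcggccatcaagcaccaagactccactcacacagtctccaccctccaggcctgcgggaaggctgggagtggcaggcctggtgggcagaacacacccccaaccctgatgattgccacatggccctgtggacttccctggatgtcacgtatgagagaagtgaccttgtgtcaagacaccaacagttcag
Proz, chr8:13060658-13060907: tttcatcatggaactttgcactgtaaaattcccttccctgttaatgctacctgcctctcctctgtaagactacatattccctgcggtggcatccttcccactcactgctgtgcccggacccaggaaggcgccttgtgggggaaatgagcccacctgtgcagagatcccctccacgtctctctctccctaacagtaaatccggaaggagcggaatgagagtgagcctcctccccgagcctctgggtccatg

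These promoters contained few CG dinucleotides, with 4 in F7, 4 in F10 and 7 in Proz. Mcf2l also had 7, against 31 in Pcid2 and 38 in Cul4a over the same length. No letter is in capitals because none of the motifs searched was found in them. Motifs were searched in windows that run 250 bases before to 50 after the start. For each gene only the RefSeq promoter nearest its TSS was searched, although Mcf2l has 6 listed. The STAT6 motif (TTC and GAA separated by 4 bases) was absent from the searched promoters of all 6 genes and present in 6.95% of 32851 RefSeq promoters. The EGR motif GCGTGGGCG and the HNF4 motif CAAAGTCCA were also absent on both strands, with none or 1 mismatch allowed. With 1 mismatch they were found in 13.6% and 8.47% of all promoters. An absent match says only that these letters are not in the window.

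Loop number around the factors was several times higher in IL-4 than in CTR and intermediate after washout. Within 100 kb of the F10 TSS the lists held 9 loops in CTR, 48 in IL-4, 35 in pIL-4, 4 under IFNG and 18 under pIL-4 + IFNG. F7 gave 9, 48, 33, 3 and 18 loops in the same order. Proz gave 10, 48, 35, 4 and 21 loops. For F10 the exact 95% Poisson interval was 4.12 to 17.1 loops in CTR and 35.4 to 63.6 in IL-4. Such intervals cover counting error only, and touching bin pairs are not independent counts.

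Pcid2 and Cul4a, whose windows are almost the same, each gave 6 loops in CTR, 49 in IL-4, 33 in pIL-4, 4 under IFNG and 19 under pIL-4 + IFNG. Mcf2l, whose TSS lies farther left, gave 4, 15, 12, 4 and 4 loops. It was the member with the fewest loops in CTR, IL-4, pIL-4 and pIL-4 + IFNG, while in IFNG F7 had fewest. In the IL-4 list F10 had more loops than 91.0% of protein-coding genes, and in CTR more than 55.6%.

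**Figure D1:**
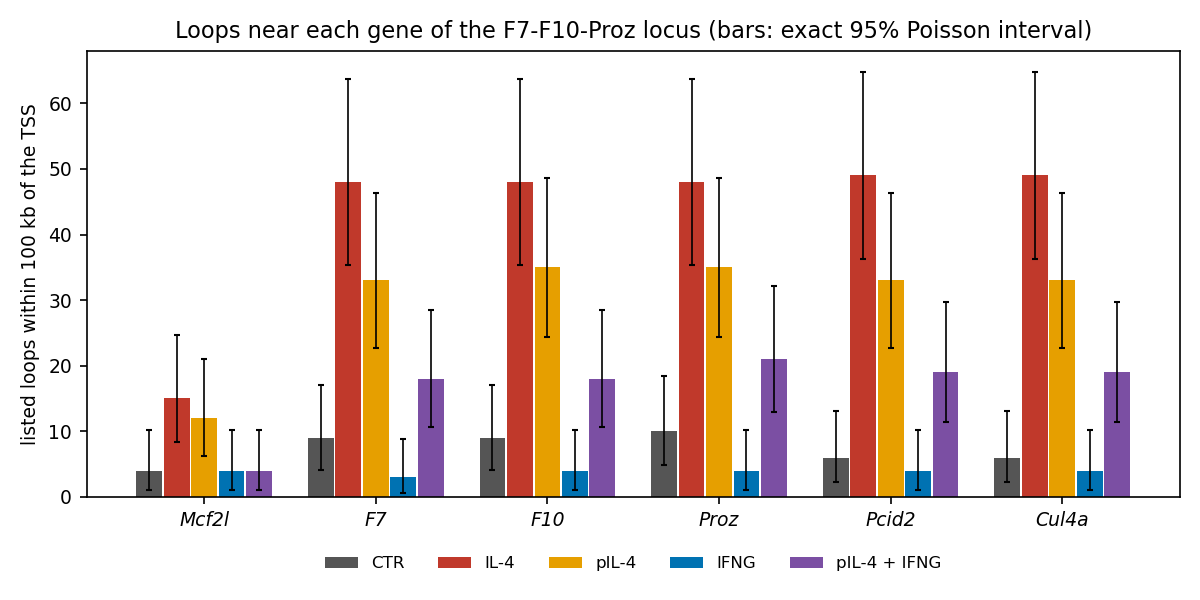
Number of listed loops (y axis) with an anchor within 100 kb of the TSS of each of the 6 genes (x axis), with 1 bar per loop list and exact 95% Poisson intervals, which cover counting error only. IL-4 is the highest bar for each gene, at 15 loops for Mcf2l and 48 or 49 for the other 5, and the windows of those 5 overlap.

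Ratios of loop number were divided by the ratio of list lengths after adding 1 to each number. All 6 genes were at least 2-fold higher in IL-4 than in CTR, with log2 ratios from 1.55 for Mcf2l to 2.71 for Pcid2 and Cul4a and 2.17 for F7 and F10. At that cut, 5.35% of the 16894 genes with a loop in either list were higher. In pIL-4 over CTR all 6 were again at least 2-fold higher, with log2 ratios of 1.04 to 1.94, where 5.16% of 17101 genes were. Both counts restate the basis on which the locus was chosen. From IL-4 to pIL-4 the log2 ratio lay between -0.77 and -0.52 in the 6 genes.

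In the union of the 6 windows, loop number was 11 in CTR, 57 in IL-4, 42 in pIL-4, 6 under IFNG and 23 under pIL-4 + IFNG. Per 10000 loops of each list these were 2.06, 9.78, 6.20, 1.09 and 3.43. The log2 ratio of IL-4 over CTR was 2.25, with an exact binomial 95% interval of 1.30 to 3.33. That of pIL-4 over CTR was 1.59 (0.61 to 2.70), and that of pIL-4 over IL-4 was -0.66 (-1.27 to -0.057). The last interval reached past 0 without division by list length (to 0.16), with lists of equal length (to 0.027) and with spans of at least 50 kb (to 0.15). Merging bin pairs that touch lowered the ratios to CTR: the loops then numbered 8 in CTR, 18 in IL-4 and 10 in pIL-4, and the log2 ratio was 1.05 (-0.22 to 2.46) for IL-4 over CTR and 0.064 (-1.43 to 1.61) for pIL-4 over CTR. Both intervals then included 0, as did that of pIL-4 over IL-4 at -0.98 (-2.26 to 0.21).

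The map of listed bin pairs shows which loops were merged. In both IL-4 groups many loops formed a patch of neighbouring bin pairs over F7, F10 and Proz, joining the 3′ part of Mcf2l to Pcid2 and Cul4a. The patch was outlined after the values were seen, as 5 left bins (chr8:12970001-13020000) and 6 right bins (chr8:13080001-13140000), which make 30 possible pairs. Of these 30, the CTR list held 4, IL-4 24, pIL-4 23, IFNG 2 and pIL-4 + IFNG 12. IL-4 and pIL-4 thus filled nearly the same area, with 19 pairs in both. All 4 pairs of CTR were also in both of those lists. pIL-4 + IFNG held 11 of the 23 pairs of pIL-4 and 1 further pair, and 2 of the 30 pairs were in no list.

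In IL-4 the largest group of touching pairs had 31 members with spans of 50 to 160 kb. It had 24 members in pIL-4, 13 in pIL-4 + IFNG, 3 in CTR and 1 in IFNG. Groups of that size were uncommon but not rare elsewhere: 183 of the 20638 groups in the IL-4 list had at least 31 loops. Outside the outlined patch, the locus held 7 loops in CTR, 33 in IL-4, 19 in pIL-4, 4 under IFNG and 11 under pIL-4 + IFNG.

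**Figure D2:**
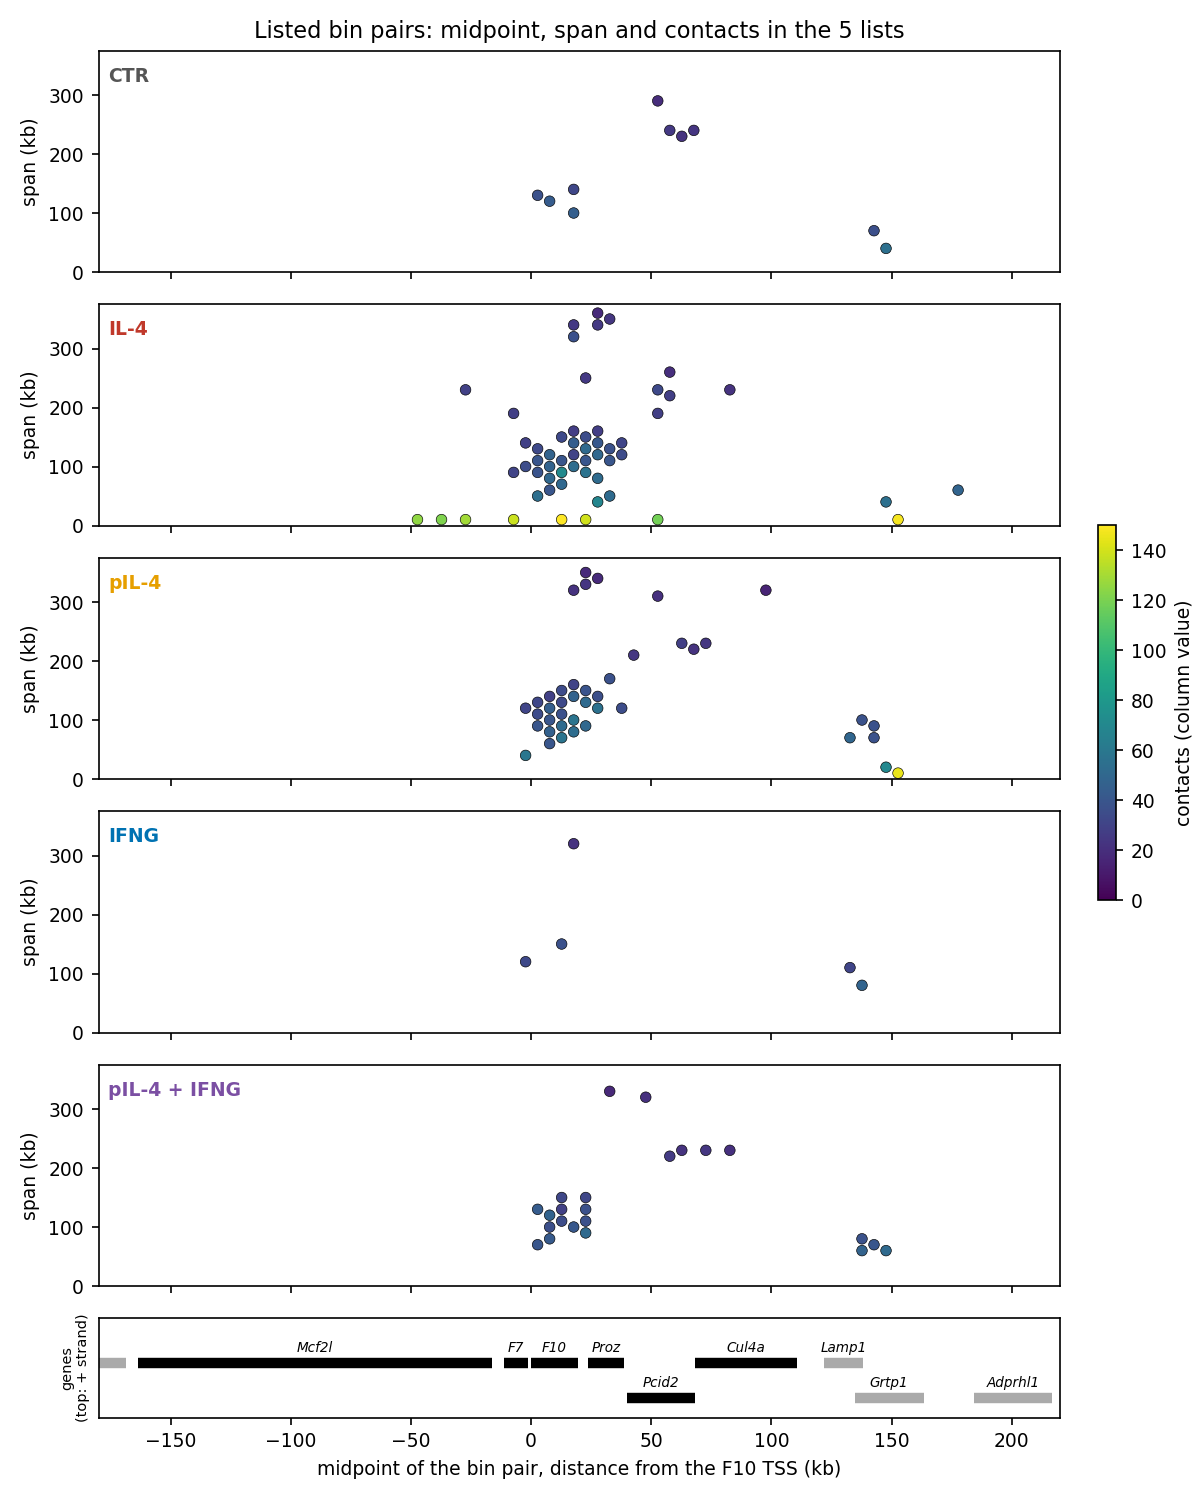
Each point is a listed bin pair, placed at its midpoint in kb from the F10 TSS (x axis) and its span in kb (y axis) and coloured by contacts, in 1 panel per list, with genes drawn at the bottom (members in black). Points between spans of 50 and 160 kb crowd over F7, F10 and Proz in IL-4 and pIL-4, and 1 loop each of CTR, IL-4 and IFNG lies outside the area drawn.

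Most loops enclosed the 3 factor genes without touching them. Loops with both anchors outside the F7 to Proz interval and on opposite sides of it numbered 8 of 11 in CTR, 40 of 57 in IL-4, 34 of 42 in pIL-4, 3 of 6 under IFNG and 18 of 23 under pIL-4 + IFNG. Loops with an anchor inside the interval numbered 9 in IL-4, 2 in pIL-4 and 1 under pIL-4 + IFNG, and there were none in CTR or IFNG.

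The promoter bins of F7, F10 and Proz were listed as anchors in IL-4 alone. The F7 promoter bin had 2 loops. It joined the F10 promoter bin next to it with 138 contacts (exact 95% Poisson interval 116 to 163) and the shared promoter bin of Pcid2 and Cul4a with 52 contacts (38.8 to 68.2). The F10 promoter bin had only the first of these loops. The Proz promoter bin joined the last bin of the F10 gene with 139 contacts (117 to 164) and a bin in Mcf2l with 54 contacts (40.6 to 70.5). The body of F10, beyond its promoter bin, held further IL-4 loops: 151 contacts between chr8:13040001-13050000 and the next bin, and 69 and 52 contacts from chr8:13040001-13050000 to a pair of bins in Pcid2. After washout, the pIL-4 list held 1 loop on the F10 body, with 59 contacts to chr8:13010001-13020000 in Mcf2l. By Micro Capture-C, a finer method aimed at chosen promoters, the paper reports IL-4-induced contacts of the F10 promoter that were stable after washout. The absence of promoter loops from the pIL-4 list therefore does not show that such contacts were lost.

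Adjacent bins made up 8 of the 57 loops in IL-4 and 1 of 42 in pIL-4. There were none in the other 3 lists. Their share of the whole list was 4.50% to 5.66% in all 5. The 8 pairs of IL-4 had 118 to 151 contacts, against a median of 138 for adjacent bins in that list. Only the pair in Grtp1, a neighbouring gene, was shared, with 148 contacts in IL-4 and 145 in pIL-4.

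The Pcid2 and Cul4a promoter bin (chr8:13100001-13110000) was an anchor in 4 lists. It carried 3 loops with 125 contacts in CTR, 7 with 311 in IL-4, 5 with 222 in pIL-4 and 5 with 217 in pIL-4 + IFNG, and it carried none in IFNG. The Mcf2l promoter bin was an anchor in no list, although the body of Mcf2l was touched by 9, 48, 36, 3 and 19 loops in list order. On the left side, the bins with most IL-4 loops were the 3 from 12980001 to 13010000, with 9, 9 and 10 loops. In CTR the same bins had 4, 0 and 1, and in pIL-4 they had 7, 7 and 4.

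**Figure D3:**
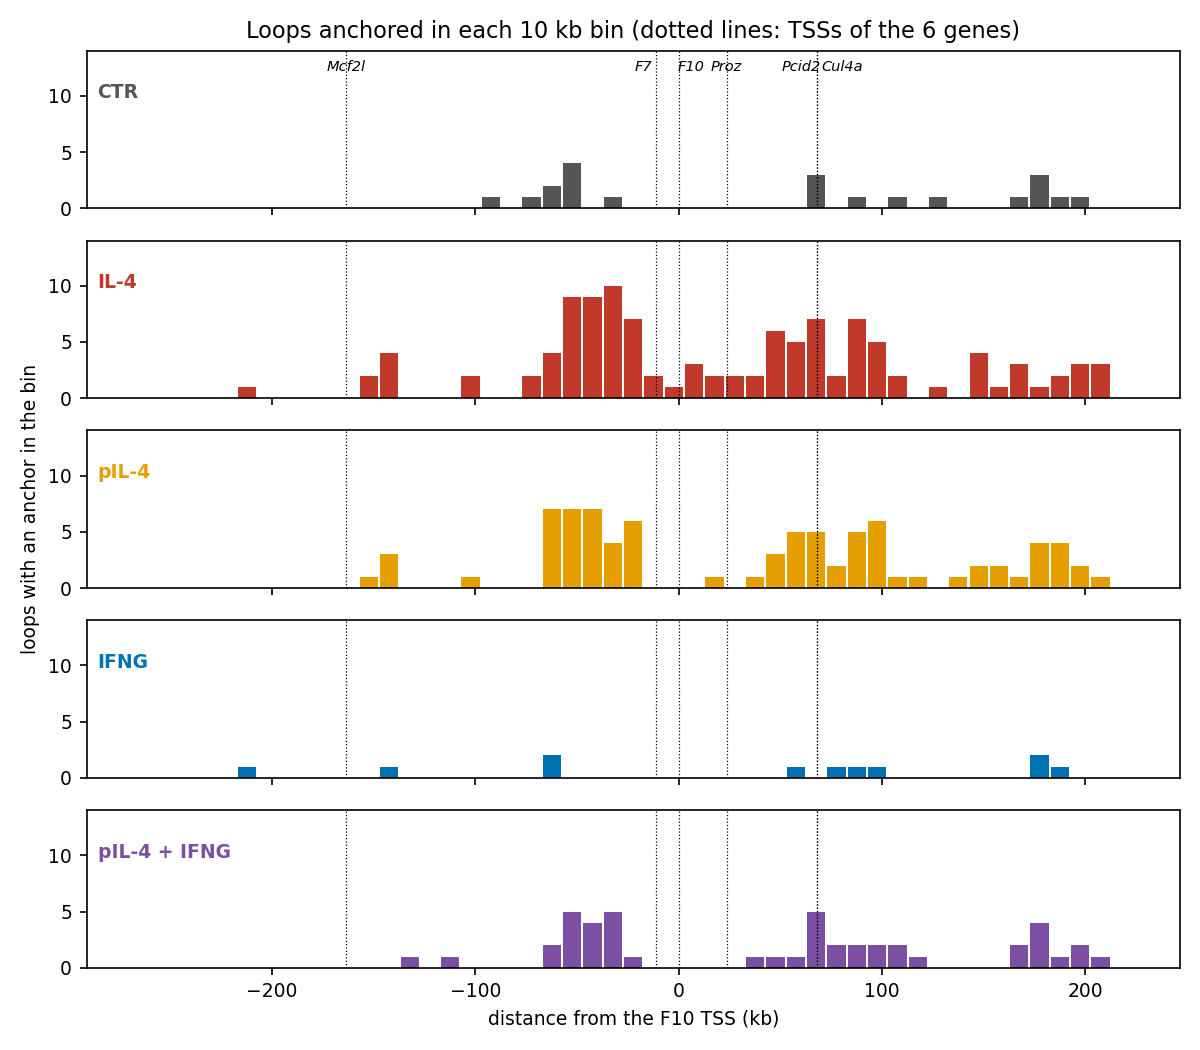
Number of listed loops anchored in each 10 kb bin (y axis) against the distance of the bin centre from the F10 TSS in kb (x axis), 1 panel per list, with the TSSs of the 6 genes as dotted lines and anchors farther away left out. IL-4 anchors gather at 2 flanks, with up to 10 loops in a bin to the left and up to 7 to the right, and the F10 TSS bin between them has 1 loop in IL-4 and none in the other 4 lists.

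The strongest loops of CTR, by contacts relative to the median of its list at the same span, all ended at the Pcid2 and Cul4a promoter bin. They came from 12970001, 12980001 and 13000001 (the first base of each left bin) and had 37, 43 and 45 contacts. The same 3 pairs had 33, 47 and 53 contacts in IL-4, 32, 45 and 58 in pIL-4 and 43, 47 and 41 in pIL-4 + IFNG. None of them was in the IFNG list. At each of these pairs the Poisson intervals of the 4 lists that held it overlapped.

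In IL-4 the strongest loop relative to span joined chr8:12890001-12900000, in Mcf2l, to chr8:13210001-13220000, to the right of Grtp1. It had 37 contacts (26.1 to 51.0), 1.68 times the median of 22 at a span of 320 kb, and had 22 in each of pIL-4 and IFNG. In pIL-4 the strongest joined chr8:13000001-13010000 to chr8:13120001-13130000 in Cul4a with 56 contacts (42.3 to 72.7), 1.51 times the median of 37 at 120 kb. The strongest in IFNG was a loop of 920 kb with 12 contacts that reached into Atp11a and did not enclose the factors. The median strength of locus loops lay between 0.914 and 1.01 in the 5 lists, and single loops ranged from 0.682 to 1.68.

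At bin pairs held by both lists of a comparison, the intervals of the contact ratios included 0. The 5 pairs shared by CTR and IL-4 had 212 and 232 contacts, a log2 ratio of 0.13 (exact binomial 95% interval -0.14 to 0.41). The 6 pairs shared by CTR and pIL-4 had 215 and 248 contacts, a log2 ratio of 0.21 (-0.063 to 0.48). The 23 pairs shared by IL-4 and pIL-4 had 1092 and 1045 contacts, a log2 ratio of -0.063 (-0.19 to 0.060). Over all bin pairs that the same lists share, the ratios were -0.0013, 0.040 and 0.042 in the same order. None of these contact ratios was scaled for depth. When each loop was instead set against the highest count within 25 kb in the other list, pIL-4 over IL-4 was -0.59 (-0.68 to -0.49). Choosing the highest count in the other list only lowers the ratio, so this value does not show weaker contacts after washout. A pair is listed only where its count was high enough to be called, so shared pairs cannot show the level of a pair that 1 list lacks. At a span of 90 kb, 95% of listed pairs had at least 29 to 31 contacts in each list, and the lowest had 13 to 20.

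**Figure D4:**
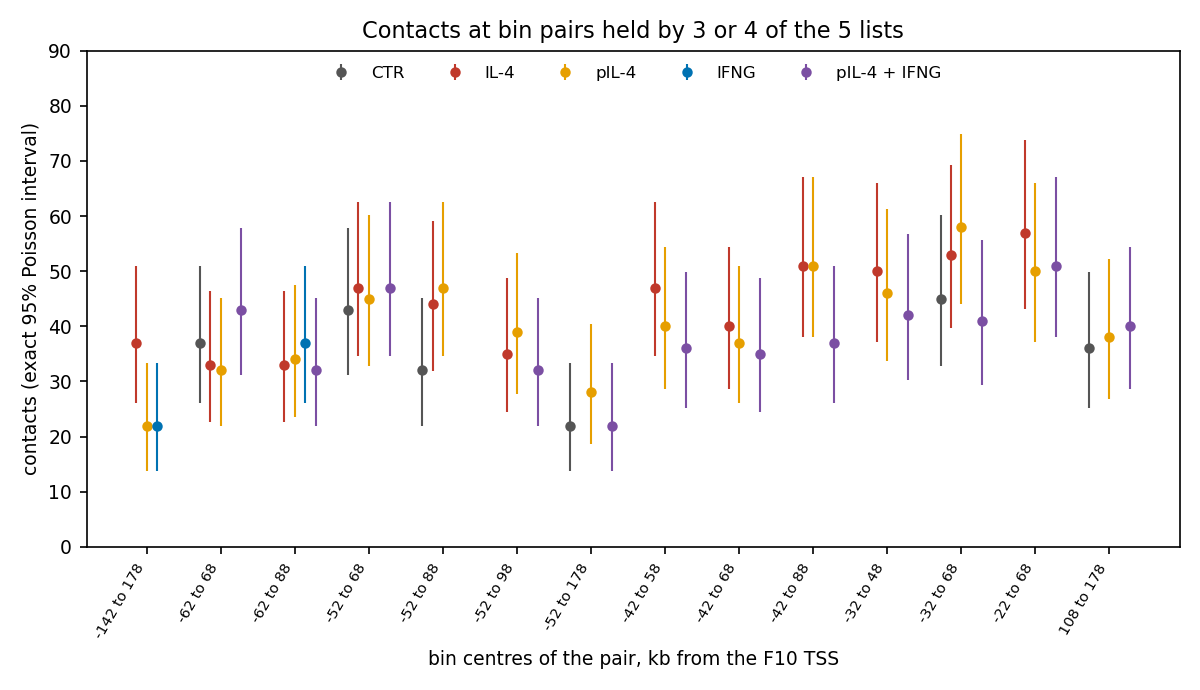
Contacts (y axis) at the 14 bin pairs held by 3 or 4 of the 5 lists, named by their bin centres in kb from the F10 TSS (x axis), with exact 95% Poisson intervals. Each pair is drawn only in the lists that hold it, and at each pair the intervals of those lists overlap.

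Of the 88 bin pairs, none was in all 5 lists, 4 were in 4, 10 in 3, 19 in 2 and 55 in 1. Leaving the IFNG groups aside, 19 pairs were in both IL-4 groups and not in CTR, 33 in IL-4 only, 17 in pIL-4 only and 4 in CTR only. The CTR list held 8.77% of the IL-4 bin pairs of the locus, against 44.5% over the whole IL-4 list, and the pIL-4 list held 40.4% against 51.1%. With only 11 CTR loops at the locus, the CTR share could not reach that of the whole list. It restates the difference in loop number. In the other direction, the IL-4 list held 45.5% of the CTR bin pairs, against 48.5% over the whole CTR list. The IL-4 list held 54.8% of the pIL-4 bin pairs, against 44.0% over the whole pIL-4 list. Single bins understate the sharing. When both anchors could differ by up to 25 kb, 33 of the 57 IL-4 loops had a match in CTR (57.9%, 95% Wilson interval 45.0 to 69.8) and 44 had one in pIL-4 (77.2%, 64.8 to 86.2). Over the whole IL-4 list these shares were 86.4% and 89.9%. Of the 42 pIL-4 loops, 32 had a match in CTR (76.2%, 61.5 to 86.5) and 40 in pIL-4 + IFNG (95.2%, 84.2 to 98.7). Over the whole pIL-4 list these shares were 85.9% and 88.7%. The Wilson intervals treat loops as independent, although touching loops can match the same loop, so they cannot judge these gaps.

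IFNG for 3 h went with few loops here. F7, F10 and Proz were at least 2-fold lower in IFNG than in CTR, with 3, 4 and 4 loops against 9, 9 and 10, where 7.78% of 16921 genes were. For the whole locus the log2 ratio was -0.92 with an interval of -2.64 to 0.64, and within 25 kb of the TSSs its direction turned, at 0.28 (5 loops against 4). None of the 11 CTR bin pairs was in the IFNG list (0%, Wilson interval 0 to 25.9), against 46.9% over the whole CTR list, and 4 had a match within 25 kb (36.4%), against 88.0% over the whole list. The 6 IFNG loops had 12 to 48 contacts, and 3 of them enclosed the factors.

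IFNG after IL-4 and rest left 23 loops, fewer than the 42 of pIL-4 and more than the 6 of IFNG. Over pIL-4 the log2 ratio was -0.85 (-1.65 to -0.087). The interval included 0 with spans of at least 50 kb, at -0.74 (-1.55 to 0.042). It also did with touching pairs merged, at -0.99 (-2.89 to 0.69), from 5 loops against 10. Mcf2l alone among the 6 genes was at least 2-fold lower, with 4 loops against 12, where 3.32% of 17304 genes were. The 14 shared bin pairs had 511 contacts in pIL-4 + IFNG and 555 in pIL-4, a log2 ratio of -0.12 (-0.30 to 0.057). Over all bin pairs that these lists share it was -0.019. By the highest count within 25 kb in pIL-4, a choice that itself lowers the ratio, the locus value was -0.46 (-0.59 to -0.33). The 2 bin pairs shared with IFNG had 70 contacts in pIL-4 + IFNG and 85 in IFNG, a log2 ratio of -0.28 (-0.76 to 0.19). Over all bin pairs shared by that pair of lists it was -0.021. Over IFNG the log2 ratio of loop number was 1.65 (0.32 to 3.24). F7, F10, Proz, Pcid2 and Cul4a were at least 2-fold higher there, with 18 to 21 loops against 3 or 4, where 4.72% of 17115 genes were. With touching pairs merged, pIL-4 + IFNG had 5 loops and IFNG had 6, and the log2 ratio was -0.47 (-2.52 to 1.51). Whether the effect of IFNG differed with earlier IL-4 was not tested.

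CTCF is the zinc finger protein that stops loop extrusion by cohesin, and loops often join a pair of its sites that point at each other. Its 14-base consensus, with at most 1 mismatch on either strand, was found in 12 of the 40 anchor bins of the locus. It was found in 31.4% of all 70650 anchor bins of the lists and in 21.4% of all 255959 sequenced bins. The following matches are shown, in capitals with 8 bases on each side and read 5′ to 3′ on the strand of the match in GRCm38, as examples from both flanks of the patch, from F10 between them and from the right end of the locus:
Mcf2l intron, chr8:12988891-12988904, plus strand: tcaagtggCCACCAGAGGTCAGgagagtcg
Mcf2l intron, chr8:12996515-12996528, plus strand: gggcctgtCGACCAGAGGGCGGagctggcc
F10 intron, chr8:13052405-13052418, plus strand: gctgactcCCACCAGAGGGTAGggaattca
Pcid2 intron, chr8:13093309-13093322, minus strand: taaggcagCCACCAGAGGGCAAttaggaac
Cul4a intron, chr8:13143385-13143398, minus strand: tccaaggcCCAGCAGAGGGCAGgcactact
between Grtp1 and Adprhl1, chr8:13214106-13214119, minus strand: ctcaggcgCCACCAGGGGGCACtgctaacc

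All 8 matches in anchor bins within Mcf2l were on the plus strand. Of the 8 matches in anchor bins from Pcid2 rightwards, 7 were on the minus strand, and the plus-strand match at chr8:13143950-13143963 in Cul4a was the exception. The Cul4a and Grtp1 to Adprhl1 matches shown have no mismatch, as does a match in Tmco3. A loop with a plus-strand match in its left bin and a minus-strand match in its right bin was 3 of 11 in CTR, 6 of 57 in IL-4, 8 of 42 in pIL-4, 2 of 6 under IFNG and 5 of 23 under pIL-4 + IFNG. In whole lists the share was 10.1% to 11.1%. The reverse arrangement occurred in none of the locus loops and in 3.02% to 3.16% of whole lists. No anchor bin to the left of Pcid2 held a minus-strand match, so loops starting there could not have this arrangement. The left bins 13000001 and 13010001 (first base), with 10 and 7 loops in IL-4, and the Pcid2 and Cul4a promoter bin held no match. A match is a description of sequence, and CTCF binding was not measured in these lists. The paper reports CTCF-bound sites on both flanks of F10 that looped stably to its promoter after IL-4. By their distances from the F10 TSS, these sites lie in bins named above as holding no match. A bin without a match to this consensus can therefore still be bound by CTCF.

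To the right of the members, each gene as far as Tfdp1 had more loops in IL-4 than in CTR. Lamp1, which encodes a lysosomal membrane protein and starts 121.9 kb to the right of the F10 TSS, had 10 loops in CTR, 53 in IL-4, 41 in pIL-4, 5 under IFNG and 23 under pIL-4 + IFNG. Grtp1, at 163.3 kb, had 10, 38, 32, 4 and 20. These windows reach back into the patch, so they share its loops. From Adprhl1, at 216.9 kb, to Tfdp1, at 301.4 kb, loop number was 4 to 7 in CTR, 10 to 15 in IL-4 and 12 to 18 in pIL-4. Atp4b and Grk1, at 359.5 and 367.8 kb, had 11 loops in CTR and 9 in IL-4, but 23 and 22 in pIL-4. Tmem255b, at 397.9 kb, had 11, 14, 28, 9 and 19. Gas6, a vitamin K-dependent ligand of TAM receptors at 457.2 kb, had 35, 38, 58, 25 and 47 loops, a log2 ratio of -0.0095 in IL-4 over CTR.

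To the left, Atp11a had 2, 4, 3, 2 and 1 loops, and its TSS lies 280.3 kb from that of F10. Tubgcp3 had 4, 5, 12, 6 and 5, and Spaca7, farthest away, had 12, 7, 15, 12 and 6. Just outside the union of windows the nearest IL-4 loop had 9 contacts and lay 24.4 kb away, and the nearest in the other 4 lists lay 63.8 to 93.8 kb away. The loop nearest the edge inside it in IL-4 and pIL-4 was the Grtp1 pair of 148 and 145 contacts.

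**Figure D5:**
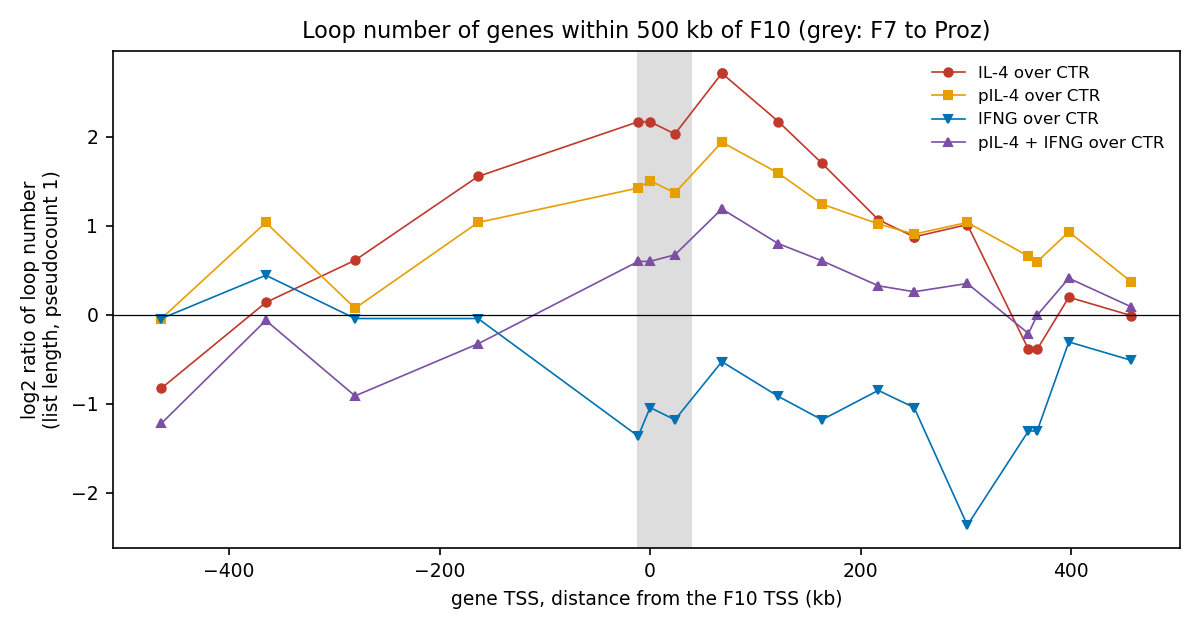
Log2 ratio of loop number to CTR (y axis, scaled by list length, pseudocount 1) for genes with a TSS within 500 kb of the F10 TSS (x axis, kb), with 1 line per list and the F7 to Proz interval in grey; neighbouring windows overlap and all 4 lines share the CTR list. The IL-4 line peaks at 2.71 at Pcid2 and Cul4a and reaches -0.0095 at Gas6.

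Among other genes of coagulation and fibrinolysis, the counts past 2-fold were near those of all genes tested and are not a result about the list. Of a list of 43 such genes outside the locus, 32 had a loop in CTR or IL-4. Among these, 1 was at least 2-fold higher in IL-4 and 2 were lower, where 5.35% of all genes tested were higher and 7.8% were lower. Their median log2 ratio was 0.046, against -0.035 over all genes tested. The 1 higher gene was Kng2, which encodes a kininogen, with 7 loops against 1. The lower genes were F9, coagulation factor IX, and Serpinc1, antithrombin, with 0 loops each against 1. In pIL-4 over CTR, 37 of the 43 were tested, 1 was higher and 2 were lower, where 5.16% of all genes were higher and 5.05% were lower, and the median log2 ratio of -0.020 equalled that of all genes. F13a1, the A chain of the transglutaminase factor XIII, was the higher gene, with 2 loops in CTR, 3 in IL-4, 7 in pIL-4, 1 under IFNG and 7 under pIL-4 + IFNG. F9 and Proc, protein C, were the lower genes, with 0 and 1 loops against 1 and 3.

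F3, which encodes tissue factor, the partner of factor VII, had 27 loops in CTR, 35 in IL-4, 29 in pIL-4, 40 under IFNG and 41 under pIL-4 + IFNG. Its order thus differed from that of F7, with the highest numbers in both IFNG groups. Serpina10, the inhibitor that protein Z serves as cofactor, had no loop within 100 kb in any of the 5 lists.

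Outside 1 Mb of the locus, the gene whose loop numbers were most like those of F10 was Mreg on chromosome 1, which encodes melanoregulin. Likeness was the Euclidean distance over the 4 log2 ratios to CTR, among 8036 genes with at least 20 loops in a list. Mreg, at a distance of 1.30, had 7 loops in CTR, 34 in IL-4, 19 in pIL-4, 8 under IFNG and 16 under pIL-4 + IFNG. The next 3, Uhrf1bp1, Snrpc and D17Wsu92e, are neighbours on chromosome 17 and share loops, with 7 in CTR and 24 to 26 in IL-4. Elfn1 on chromosome 5 was the fifth, with 9, 40, 20, 11 and 17 loops. From IL-4 to pIL-4 their log2 ratios were -1.18 to -1.02, against -0.66 for F10.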

How the data were processed

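Hi-C on MboI-digested chromatin was run on 10 samples, 2 per group, and groups were read from the sample titles. The authors' methods name nf-core/hic with HiC-Pro, bowtie2 and HICCUPS at 25 kb, and the submitters' processing notes name mm10 (GRCm38). The deposited values used here are whole-number counts of contacts per pair of 10 kb bins, 1 list per group, with no false discovery rate; the column has no header and was read as contacts from its values; the caller and threshold behind these lists are not given in the sources used here. A count therefore depends on depth and on what was called, and both replicates appear to be merged.

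TSSs came from GENCODE M21. Loops were counted per window, ratios were divided by list length (pseudocount of 1 for genes), and exact binomial or Poisson 95% intervals cover counting error only. Strength is the contacts of a loop divided by the median contacts of loops of equal span in its list. The step that counts loops per gene was checked against direct counts for randomly drawn genes in the CTR list. The 2-fold call was tried on a randomly thinned copy of that list and on its loop numbers raised for drawn genes. The members, the gene lists and the motifs were chosen with earlier results of these data known. Named genes were the 6 members, protein-coding genes within 500 kb of the F10 TSS, the 43-gene coagulation list by its counts (with those past 2-fold, F3, F13a1, Gas6 and Serpina10 by name) and the 5 genes most like F10. Named loops were the 3 strongest per list, those at the promoter bins of the 3 factors and those in most lists; other loops were chosen after their values were seen. Alternatives were a 25 kb window, no scaling by list length, merging of touching bin pairs, lists of equal length, at least 20 contacts, spans of at least 50 kb, TSSs of any transcript, another pseudocount, at least 5 loops per gene, matching within 25 kb and motifs without mismatch. Software comprised Python 3.11.15 with numpy 2.4.6, pandas 2.3.3 for tables, scipy 1.17.1 for intervals, and matplotlib 3.10.9 for plots.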

Additional observations from a re-analysis of the deposited data

Results flagged for a closer look

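Mcf2l was the 1 member whose scaled loop ratios for earlier IL-4 had opposite signs without and with IFNG, although its loop number was the same in both IFNG groups. Its log2 ratio was 1.04 in pIL-4 over CTR (12 loops against 4) and -0.28 in pIL-4 + IFNG over IFNG (4 loops against 4, the ratio being below 0 through the list lengths alone). With 1 list per group the difference between these ratios was not tested.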

How the results depend on the processing

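No paired analysis was possible because the columns carry no replicate number and there is 1 list for each group. Of 77 results under other settings, 60 stayed within the interval of the value or, for a count of genes or bins, within 1.5 times of it. Merging touching bin pairs moved the locus log2 ratio of loop number to 1.05 in IL-4 over CTR (-0.22 to 2.46, which includes 0) and to 0.064 in pIL-4 over CTR, and reversed it to -0.47 in pIL-4 + IFNG over IFNG, since a patch then counts as 1 loop. A 25 kb window raised it to 3.40 in IL-4 over CTR. Taking the highest count within 25 kb gave log2 contact ratios of -0.59 in pIL-4 over IL-4 and -0.46 in pIL-4 + IFNG over pIL-4. The highest of several neighbouring counts was taken in the other list only, which lowers these ratios by construction. IFNG and CTR shared no bin pair, so no contact ratio was computed for them. Matching within 25 kb left 11 in place of 19 IL-4 bin pairs also in pIL-4 and not in CTR. Without a mismatch the CTCF consensus was in 3 bins in place of 12.

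Genes past 2-fold in either direction numbered 2220 in IL-4 over CTR, 1747 in pIL-4 over CTR, 1927 in pIL-4 over IL-4, 2324 in IFNG over CTR, 1955 in pIL-4 + IFNG over pIL-4 and 1785 in pIL-4 + IFNG over IFNG. Requiring at least 5 loops in either list cut these to 917, 662, 761, 916, 760 and 547. The genes tested fell by a smaller share, from 16894 to 12699 in IL-4 over CTR. A pseudocount of 0.5 raised 1747, 1927 and 1785 to 2889, 2989 and 2734. No division by list length, chosen after seeing the data, gave 3388, 3137 and 3022 for these. It moved the share of calls that were higher from 40.7% to 60.7%, 50.5% to 78.7%, 47.7% to 71.5%, 43.4% to 59.9%, 70.6% to 50.5% and 45.3% to 72.4% in the 6 comparisons, with the median log2 ratio of all genes going from -0.020 to 0.32 in pIL-4 over CTR. Under these settings and a 25 kb window all 6 members were at least 2-fold higher in IL-4 and in pIL-4 than in CTR, which restates how the locus was chosen. Over the same settings, genes higher in IL-4 ranged from 512 of 12699 to 1960 of 16894. Genes higher in pIL-4 ranged from 485 of 13117 to 2667 of 17101. With a 25 kb window 1 member was at least 2-fold lower in IFNG than in CTR, in place of 3, where 1830 of 13948 genes were. In pIL-4 over IL-4, 3 were lower, in place of 0, where 1389 of 14362 genes were. In pIL-4 + IFNG over pIL-4, 2 were lower, in place of 1, where 709 of 14595 genes were. In pIL-4 + IFNG over IFNG 4 were then higher and 1 lower, in place of 5 and 0, where 1096 and 1243 of 14327 genes were. The locus ratio of that comparison was 1.30 (-0.23 to 3.11). Some of the 25 kb windows of the members overlap, so these counts are not independent. Small numbers widen the intervals: 6 and 11 loops gave one of -2.64 to 0.64.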
